A study of Mus musculus with 16 samples.

Results

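The TAM receptors Axl, Mertk and Tyro3 and their ligands Gas6 and Pros1 were followed by gene symbol through the RNA of microglia sorted from the brains of 16 mice. All 5 genes were among the 20267 genes measured, and 14 of their transcripts were among 61144. Levels are in CPM, read counts scaled to a common total of assigned reads per library. Of the 5 genes, 4 reached 1 CPM in at least 4 libraries and were tested among 13912 genes, and 11 of the 14 transcripts were tested among 34323. Tyro3 did not reach that level and is given by its values.

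The study asked whether losing the kinase p38α in microglia alters an early amyloid model of Alzheimer's disease. WT p38+/+ mice were APPswe/PS1dE9-/-, p38fl/fl, Cx3cr1-creERT2-/-, and WT p38KO mice carried Cx3cr1-creERT2+/- in the same setting. AD p38+/+ mice were APPswe/PS1dE9+/-, p38fl/fl, Cx3cr1-creERT2-/-, and AD p38KO mice were APPswe/PS1dE9+/-, p38fl/fl, Cx3cr1-creERT2+/-. There were 4 mice in each of the 4 groups, 1 library a mouse, all on C57BL/6J. Every mouse, controls included, had floxed p38α and ate a tamoxifen diet for 4 weeks from 5 months of age, and the brains were taken at 11 months. About 10000 live CD11b+/P2ry12+ cells were sorted per mouse, and the libraries with the best RNA integrity in each group were sequenced. The mice were labelled 5 female and 11 male. The Cre gene is driven from Cx3cr1, which loses a copy to it, and Cx3cr1 itself was 2978 to 4061 CPM in p38KO and 5639 to 9296 CPM in p38+/+ libraries. The effects of Cre, of this copy and of the loss of p38α cannot be told apart in the p38KO groups.

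TAM receptors are receptor tyrosine kinases that bind phosphatidylserine, a lipid displayed on dying cells, through the bridging proteins Gas6 and Pros1. Mertk and Axl serve the clearance of apoptotic cells by macrophages and microglia, and they also restrain inflammatory signaling. In the brain, Mertk is a receptor of resting microglia, Axl is raised in microglia near amyloid plaques, and Tyro3 is mainly neuronal. Gas6 binds all of the receptors, whereas Pros1, an anticoagulant protein of plasma, binds Mertk and Tyro3.

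Axl was the member that differed between groups, and it had 2 coding transcripts at measurable levels, which differ inside the coding sequence. Axl lies at chr7:25757273-25788705 on the minus strand (GRCm38, GENCODE M21). Transcript Axl-201 has 20 exons and 2664 coding bases, and Axl-202 has 19 exons and 2637 coding bases. Exon 10, of 27 bases or 9 codons at chr7:25773099-25773125, is in Axl-201 and absent from Axl-202. The transcripts also differ at both ends. The sequences below are read from the annotated transcripts, with the last 30 bases of exon 9 and the first 30 of exon 11 in lower case and exon 10 in capitals. They show the junctions at which the transcripts differ inside the coding sequence. The shares given later rest on the levels estimated for whole transcripts, and reads over these junctions were not counted.
Axl-201: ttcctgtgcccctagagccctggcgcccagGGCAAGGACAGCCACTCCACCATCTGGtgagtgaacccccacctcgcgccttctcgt
Axl-202: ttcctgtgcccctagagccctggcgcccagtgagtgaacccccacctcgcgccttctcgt

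The transcript of the deleted kinase that was checked followed the p38 genotype in the labels, and the protein was not measured here. Mapk14-202, a transcript of the targeted p38α gene, was 47.1 to 82.6 CPM in the 8 p38+/+ libraries and 0.0574 to 0.248 CPM in the 8 p38KO libraries, where a floor of 3 reads corresponds to 0.203 to 0.244 CPM. From the steps between low values, 1 CPM stood for 12.3 to 16.4 reads, depending on the library. Microglial markers (6 of 6, among them P2ry12, Tmem119 and Csf1r) summed to 45661 to 55611 CPM, against 21.7 to 131 CPM for 6 markers of border-associated macrophages and 0.27 to 3.68 CPM for 4 neuronal markers. P2ry12 and Itgam (CD11b), both among these 6 markers, were used for the sort and so check nothing by themselves. Libraries AD p38KO 1 and AD p38KO 4 stood apart. AD p38KO 4 lay at 108.8 on the first principal component, with the others between -10.5 and -1.5. AD p38KO 1 lay at 75.5 on the second, with the others between -27.5 and 16.4. These libraries also had the fewest genes detected, 16012 and 15453, against 16649 to 18023 in the others. Without them no member gained or lost a call. In AD mice the log2 fold change of p38KO relative to p38+/+ was then 0.18 for Axl, 0.07 for Mertk, -0.03 for Gas6 and 0.02 for Pros1. For AD relative to WT in p38KO mice it was 2.39 for Axl, 0.09 for Mertk, 0.11 for Gas6 and 0.01 for Pros1.

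Axl, the receptor that binds Gas6, was several times higher in AD than in WT microglia with and without p38α. In WT p38+/+ mice 1 to 4 its level was 32.6, 62.8, 25.1 and 29.9 CPM. In WT p38KO mice it was 49.5, 82.5, 39.1 and 46.4 CPM. The AD p38+/+ mice stood at 499, 207, 203 and 168 CPM, and the AD p38KO mice at 315, 288, 265 and 174 CPM. Every AD library lay above every WT library, with 168 CPM in the lowest of the former and 82.5 CPM in the highest of the latter. Each value rests on an estimated 330 to 7454 reads. In bulk RNA, more Axl-expressing cells and more Axl RNA per cell cannot be told apart.

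Mean Axl was 37.6 ± 17.1 CPM for WT p38+/+ and 54.4 ± 19.2 CPM for WT p38KO mice. The AD means were 269 ± 154 CPM for p38+/+ and 260.3 ± 61.3 CPM for p38KO mice (SD, 4 mice a group). With limma and Benjamini-Hochberg adjustment over all genes, the log2 fold change of AD relative to WT was 2.77 in p38+/+ mice (SE 0.33, 95% interval 2.09 to 3.46, 6.83-fold, adjusted p = 0.000352). In p38KO mice it was 2.27 (SE 0.33, interval 1.59 to 2.96, 4.83-fold, adjusted p = 0.00244). The groups did not overlap in either comparison, and the share of all genes without overlap was not counted. The exact permutation test on CPM gave p = 0.0286 in both, the smallest that 4 against 4 allows. Groups without overlap always give this value, so it adds nothing to the lack of overlap. Among 13912 genes, Axl ranked 5th and 11th by p in these comparisons. Fold changes are on the scale of log2(CPM + 0.5).

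The AD difference in Axl did not rest on a single mouse. Without AD p38+/+ mouse 1, whose 499 CPM was the highest value, the log2 fold change in p38+/+ mice was 2.43 (adjusted p = 0.000576, limma). Without AD p38KO libraries 1 and 4, that in p38KO mice was 2.39 (adjusted p = 0.0150). The highest Axl of each AD group came from its only female mouse, 499 CPM in AD p38+/+ and 315 in AD p38KO, where the males lay at 168 to 207 and 174 to 288 CPM. In WT p38KO mice the 2 females had 49.5 and 82.5 CPM and the 2 males 39.1 and 46.4. The only female of the WT p38+/+ group had 32.6 CPM, within its males' 25.1 to 62.8. With sex as a covariate the log2 fold changes were 2.77 and 2.41.

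Loss of p38α left no called difference in Axl. The log2 fold change of p38KO relative to p38+/+ was 0.56 in WT (interval -0.13 to 1.25, adjusted p = 1 with limma) and 0.06 in AD mice (interval -0.63 to 0.75, adjusted p = 0.987). The intervals allow anything from a 0.917-fold to a 2.38-fold level in WT and from 0.648-fold to 1.68-fold in AD mice. The groups overlapped in both backgrounds. Without WT p38+/+ mouse 2 the value in WT mice was 0.84, and without AD p38+/+ mouse 1 that in AD mice was 0.40, neither called. The interaction, which asks whether the AD effect differs between p38 genotypes, was -0.50 (SE 0.46, interval -1.47 to 0.47, adjusted p = 1.00).

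**Figure D1:**
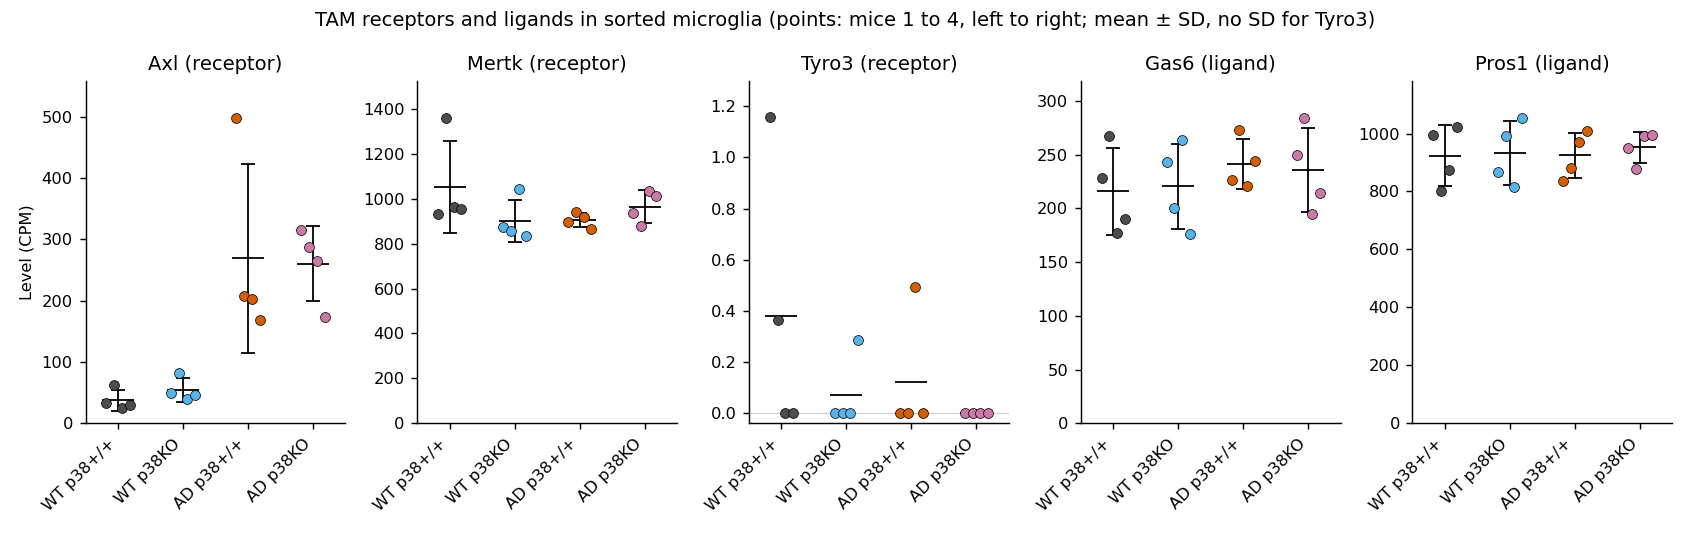
Level in CPM (vertical axis, linear, a scale for each gene) of Axl, Mertk, Tyro3, Gas6 and Pros1 in the 4 groups; points are mice 1 to 4 from left to right, the horizontal bar is the mean and the whiskers the SD (none for Tyro3). The 8 AD libraries of Axl, from 168 CPM upwards, lie above its 8 WT libraries, which reach 82.5 CPM, and the groups of the other genes overlap.

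Mertk, the main engulfment receptor of resting microglia, was high and even across groups. It was 933, 1361, 963 and 953 CPM in WT p38+/+ mice 1 to 4 and 873, 855, 1042 and 835 CPM in WT p38KO mice. In AD p38+/+ mice it was 895, 941, 918 and 866 CPM, and in AD p38KO mice 936, 877, 1034 and 1014 CPM. WT p38+/+ mouse 2 was high by itself, and all groups overlapped. The log2 fold change of AD relative to WT was -0.20 in p38+/+ (interval -0.43 to 0.03, adjusted p = 0.776, limma) and 0.10 in p38KO mice (interval -0.13 to 0.33, adjusted p = 0.822). For p38KO relative to p38+/+ it was -0.21 in WT (interval -0.44 to 0.02, adjusted p = 1) and 0.09 in AD mice (interval -0.14 to 0.32, adjusted p = 0.933). The values against the WT p38+/+ group rest largely on mouse 2. Without it, the log2 fold change of Mertk was -0.07 for AD in p38+/+ mice and -0.08 for p38KO in WT mice.

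Tyro3 was at or near 0. It was 1.16 and 0.37 CPM in WT p38+/+ mice 1 and 2, 0.29 CPM in WT p38KO mouse 4 and 0.49 CPM in AD p38+/+ mouse 3, at most 16 estimated reads. The other 12 libraries, all AD p38KO mice among them, were at 0, and 0 reads allow a level of up to 0.193 to 0.244 CPM given the depth of these libraries, for counting error only. No fold is given.

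The ligands did not differ between groups beyond the spread between mice. Gas6, whose vitamin K-dependent domain binds phosphatidylserine, was 229, 267, 178 and 190.4 CPM in WT p38+/+ mice and 243, 200.4, 263 and 176 CPM in WT p38KO mice. It was 226, 273, 221 and 244 CPM in AD p38+/+ and 249, 284, 195 and 214 CPM in AD p38KO mice, with overlap between all groups. Its log2 fold change of AD relative to WT was 0.17 in p38+/+ (interval -0.15 to 0.49, adjusted p = 0.927, limma) and 0.10 in p38KO mice (interval -0.22 to 0.42, adjusted p = 0.883). For the p38KO, Gas6 had 0.03 in WT (interval -0.29 to 0.35) and -0.04 in AD mice (interval -0.36 to 0.28).

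Pros1, the other vitamin K-dependent ligand, was 995, 801, 875 and 1023 CPM in WT p38+/+ mice and 868, 992, 814 and 1055 CPM in WT p38KO mice. It was 837, 882, 971 and 1007 CPM in AD p38+/+ mice and 951, 879, 990.1 and 994 CPM in AD p38KO mice. The 16 values spanned 801 to 1055 CPM with full overlap, the narrowest spread of the members tested (coefficient of variation 8.68% over 16 libraries, against 15.0% for Gas6 and 87.4% for Axl). The log2 fold change of Pros1 was 0.00 for AD in p38+/+ mice (interval -0.21 to 0.21) and 0.04 in p38KO mice (interval -0.17 to 0.25). The p38KO gave 0.01 in WT (interval -0.20 to 0.22) and 0.05 in AD mice (interval -0.16 to 0.26). None of these 4 differences in Pros1 passed (lowest adjusted p = 0.938, limma).

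Counted over the members, 1 of 4 tested genes was called higher and 0 lower for AD relative to WT in p38+/+ mice, where 0.359% of all genes were called, 0.359% higher and 0% lower. In p38KO mice the count was again 1 higher and 0 lower, with 0.323% of all genes called, 0.244% higher and 0.0791% lower. Over both p38 genotypes (the AD main effect), 1 was higher and 0 lower, against 1.03% of all genes called, 0.927% higher and 0.101% lower, and the log2 fold change of Axl was 2.52 (SE 0.23, 5.75-fold, adjusted p = 6.92e-06). For the loss of p38α, 0 of 4 were called in AD mice (0.0503% of all genes), in WT mice (0.00719%) and over both backgrounds (0.0791%), and 0 of 4 for the interaction (0% of all genes). In those 4 comparisons limma gave 0 members an unadjusted p under 0.05.

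**Figure D2:**
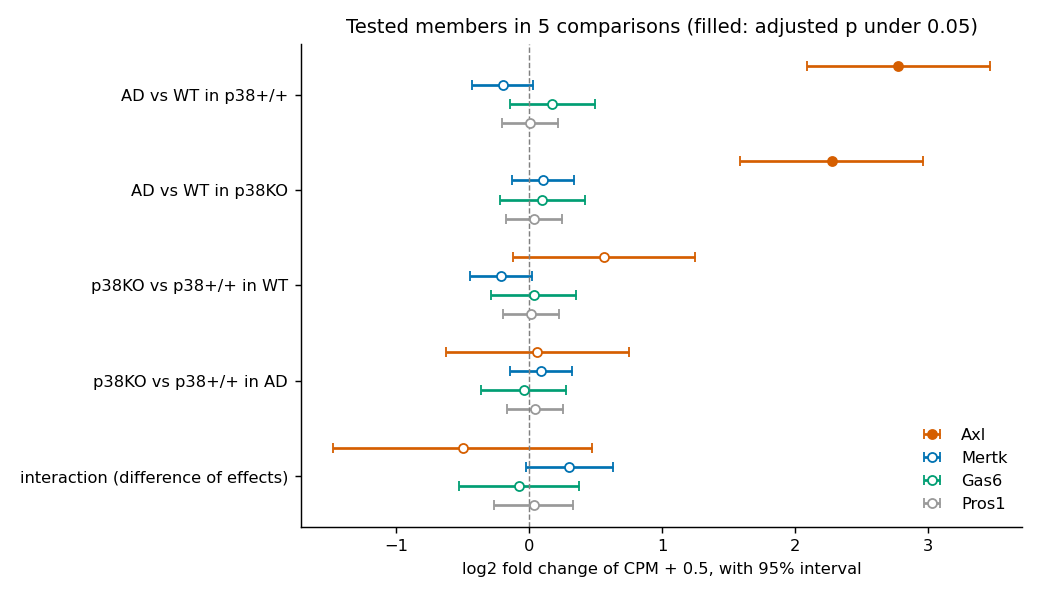
log2 fold change (horizontal axis, of CPM + 0.5) with its 95% interval for Axl, Mertk, Gas6 and Pros1 in 5 comparisons of the limma fit to 16 libraries; filled points have an adjusted p under 0.05. Axl at 2.77 and 2.27 is filled for AD relative to WT, and every other interval includes 0.

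Levels were also compared between genes, as CPM per kilobase summed over each gene's transcripts. Pros1 came first with 285 CPM per kb over 16 libraries (191st of 19915 genes ranked), then Mertk with 225 (246th), Gas6 with 89.7 (771st), Axl with 43.7 (1773rd) and Tyro3 with 0.0344. Pros1 exceeded Mertk in 15 of 16 libraries, by 1.29-fold on average, although their ranges of 244 to 322 and 197 to 321 CPM per kb overlapped. Mertk exceeded Gas6 in all 16. The order of Gas6 and Axl was clear in WT mice, with 84.8 ± 15.9 against 11.2 ± 5.16 CPM per kb in WT p38+/+ mice (SD, n = 4). In AD p38+/+ mice they were 94.6 ± 9.19 and 75.8 ± 40.9, with Axl the higher in 1 of 4 mice, so that these neighbours did not differ beyond their spread there. In AD p38KO mice Gas6 was the higher in 4 of 4, by 1.33-fold on average, with overlapping ranges of 76.5 to 111.7 and 46.9 to 89.4 CPM per kb. Using the length of the main transcript alone put Axl at 36.4 CPM per kb and left the order as it was.

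The make-up of the receptors differed between AD and WT libraries. Axl held 3.35 to 5.55% of the summed receptor level per kb in WT p38+/+ and 3.91 to 9.76% in WT p38KO libraries. In AD p38+/+ libraries it held 19.1 to 39.3% and in AD p38KO libraries 16.4 to 28.7%. Mertk per kb was 17.0 to 28.9 times Axl in WT p38+/+ and 9.25 to 24.6 times in WT p38KO libraries, and 1.54 to 4.22 and 2.48 to 5.08 times in the AD groups. Mertk remained the more abundant receptor in each of the 16 libraries. The ligands had no such shift, with Pros1 2.33 to 4.66 times Gas6 per kb in WT and 2.40 to 3.96 times in AD libraries.

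**Figure D3:**
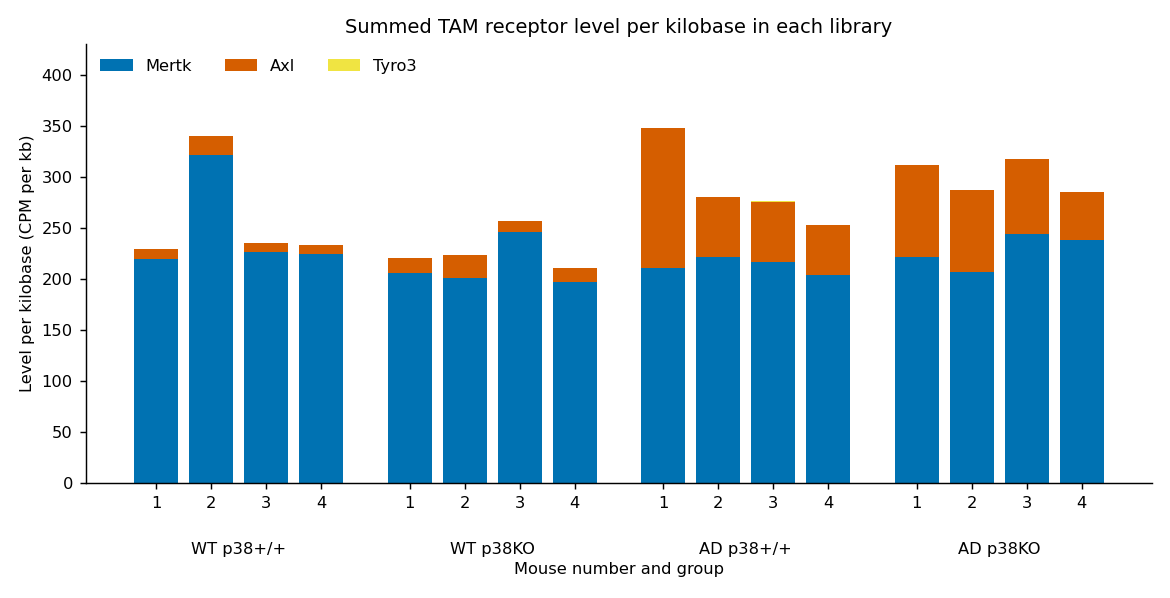
Summed level of Mertk, Axl and Tyro3 per kilobase (vertical axis, CPM per kb) in each of the 16 libraries, with mouse numbers and groups along the horizontal axis; each bar is 1 library. Axl makes up at most 9.76% of a WT bar and at least 16.4% of an AD bar, and Tyro3 is too low to be visible.

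Of the Axl transcripts, Axl-201, with exon 10, carried most of the difference in level. Its WT levels were 18.7 to 53.5 CPM with p38α and 31.7 to 70.9 CPM without, and its AD levels were 152 to 416 and 163 to 273 CPM. Its log2 fold change of AD relative to WT was 2.84 in p38+/+ (SE 0.33, adjusted p = 0.000852 over all transcripts, limma) and 2.33 in p38KO mice (SE 0.33, adjusted p = 0.00575). Axl-202, without exon 10, was 1.42 to 7.69, 2.42 to 9.83, 9.39 to 70.2 and 7.18 to 34.2 CPM in the same order of groups. Its log2 fold changes were 2.46 (SE 0.61, adjusted p = 0.237) and 1.79 (SE 0.61, adjusted p = 0.405), and over both p38 genotypes 2.12 (SE 0.43, adjusted p = 0.0342).

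The balance of the Axl transcripts did not differ between groups beyond the spread. The share of Axl-202 in the summed Axl transcripts was 23.6, 11, 19.0 and 4.75% in WT p38+/+ mice 1 to 4 and 4.88, 11.9, 18.2 and 17.0% in WT p38KO mice. In AD p38+/+ mice it was 14.1, 12.6, 14.6 and 5.59%, and in AD p38KO mice 10.1, 11.9, 11.9 and 4.13%, so that all groups overlapped. The AD groups were lower on average by 2.86 and 3.51 percentage points, with exact permutation p = 0.571 in p38+/+ and p = 0.343 in p38KO mice (two-sided, n = 4 each). For Axl-201 the AD groups were higher by 3.78 and 3.75 percentage points (exact permutation p = 0.543 and p = 0.286). These 4 tests are of 24 on transcript shares, whose smallest p was 0.286 before adjustment.

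Retained-intron transcripts of Axl held 0.842 to 6.52% of its transcript level. Of these, Axl-205, Axl-206, Axl-207 and Axl-208 were tested. Axl-205, Axl-206 and Axl-208 reached 1 CPM in AD libraries alone, and Axl-207 in all AD but only 2 WT libraries, so that all passed the filter through the groups where they were high, which favoured a difference. Of the 11 member transcripts tested, 1 was called higher for AD in p38+/+ mice (0.122% of all transcripts) and 1 in p38KO mice (0.0641%), Axl-201 in each. Over both p38 genotypes Axl-201 and Axl-202, at 1 CPM or more in every library, were called higher (0.341% of all transcripts). Axl-205 and Axl-207 also passed (adjusted p = 0.0159 each, limma), which, given the filter, adds nothing to the count. The 5 tested transcripts of Mertk, Gas6 and Pros1 were not called in any of the 7 comparisons, and limma gave none of them an unadjusted p under 0.05. Mertk-201 held 96.7 to 98.2% of Mertk and Pros1-201 held 99.6 to 99.8% of Pros1, and Gas6 had a single transcript.

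**Figure D4:**
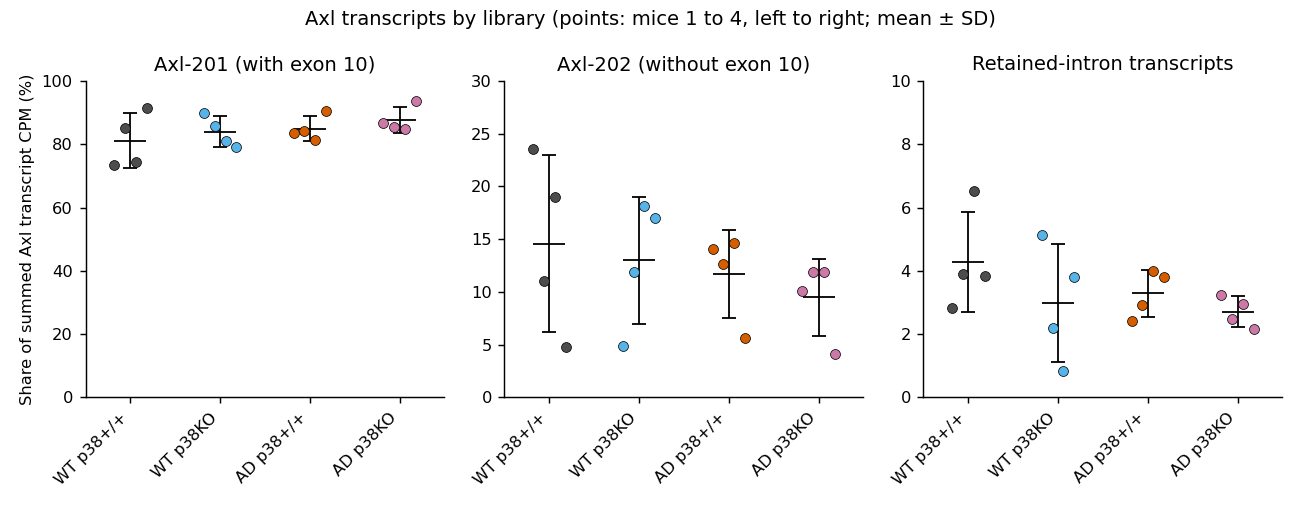
Share of the summed Axl transcript level (vertical axis, percent, a scale for each panel) held by Axl-201, Axl-202 and the retained-intron transcripts in the 4 groups; points are mice 1 to 4 from left to right, bars the mean and whiskers the SD. The groups overlap in each panel, with Axl-202 at 4.13 to 23.6% over the 16 libraries.

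Around the receptors, 6 lists of genes of the same pathway were counted, of which 69 of 81 genes were tested. None was called for AD relative to WT in p38+/+ or in p38KO mice (0.359% and 0.323% of all genes). There limma gave 6 and 10 of them an unadjusted p under 0.05, beside at least 938 and 1281 of all 13912 genes. Over both p38 genotypes 1 of 69 was called, a share near the 1.03% of all genes, and 12 had an unadjusted p under 0.05. The median log2 fold change of the 69 was -0.01 there, beside -0.03 over all genes. None was called for p38KO relative to p38+/+ in AD (0.0503% of all genes), in WT (0.00719%) or over both (0.0791%), nor for the interaction (0%), with 6, 1, 8 and 3 unadjusted p under 0.05. For the AD main effect and these comparisons, the share of all genes under that unadjusted p is not given here.

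The called gene was Lgals3, which encodes galectin-3, a lectin that is also a ligand of Mertk. Its WT means were 3.04 ± 0.93 CPM with p38α and 3.74 ± 0.81 CPM without, and its AD means were 9.60 ± 2.34 and 9.31 ± 6.09 CPM (SD, 4 mice a group). Its lowest AD library had 5.89 CPM and its highest WT library 4.47. The log2 fold change of Lgals3 was 1.29 over both p38 genotypes (SE 0.24, adjusted p = 0.00984, limma), with 1.51 in p38+/+ (adjusted p = 0.0745) and 1.06 in p38KO mice (adjusted p = 0.295). It passed in p38+/+ mice with array weights (adjusted p = 0.0107) and without AD p38KO library 1 (adjusted p = 0.0171). In 26 of 29 alternatives no pathway gene, Lgals3 included, was called in p38+/+ mice. None was called in p38KO mice in any of 29.

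The other listed genes were not called in the main fit. For the abundant ones named here no intervals are given, so the lack of a call does not show that they were level. Of 13 tested genes among other phosphatidylserine bridging molecules and receptors, 9 had a positive log2 fold change for the AD main effect (median 0.05). Among them were 0.04 for C1qb and 0.05 for C1qc, subunits of the complement protein that opsonizes dying cells and synapses. Trem2, of the same list, had 0.32 for AD in p38+/+ (adjusted p = 0.420, limma) and 0.28 in p38KO mice (adjusted p = 0.403). It was called for the AD main effect only under some alternatives. Of 9 genes for eat-me and do-not-eat-me signals 3 were positive (median -0.15), with 0.03 for Sirpa, the receptor of CD47, and 0.08 for Calr, calreticulin. Of 21 genes of engulfment signaling 6 were positive (median -0.04), with -0.10 for Cdc42 and -0.01 for Rac1, GTPases that shape the phagocytic cup.

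Of 9 tested genes of the interferon and SOCS axis, through which TAM receptors restrain cytokine signaling, 7 were positive for the AD main effect (median 0.05), with 0.10 for Ifnar2, an interferon receptor chain, and -0.08 for Jak1, its kinase. Of 9 genes for receptor shedding and ligand carboxylation 4 were positive (median -0.01). Among them were 0.12 for Timp2, a metalloprotease inhibitor, and -0.08 for Adam10, a sheddase of cell surface proteins. Of 8 genes for lipid handling and transcription in efferocytosis, the list that holds Lgals3, 4 were positive (median 0.00), with -0.20 for Abca1, a cholesterol exporter. Among these named genes only Lgals3 passed the test in the main fit.

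**Figure D5:**
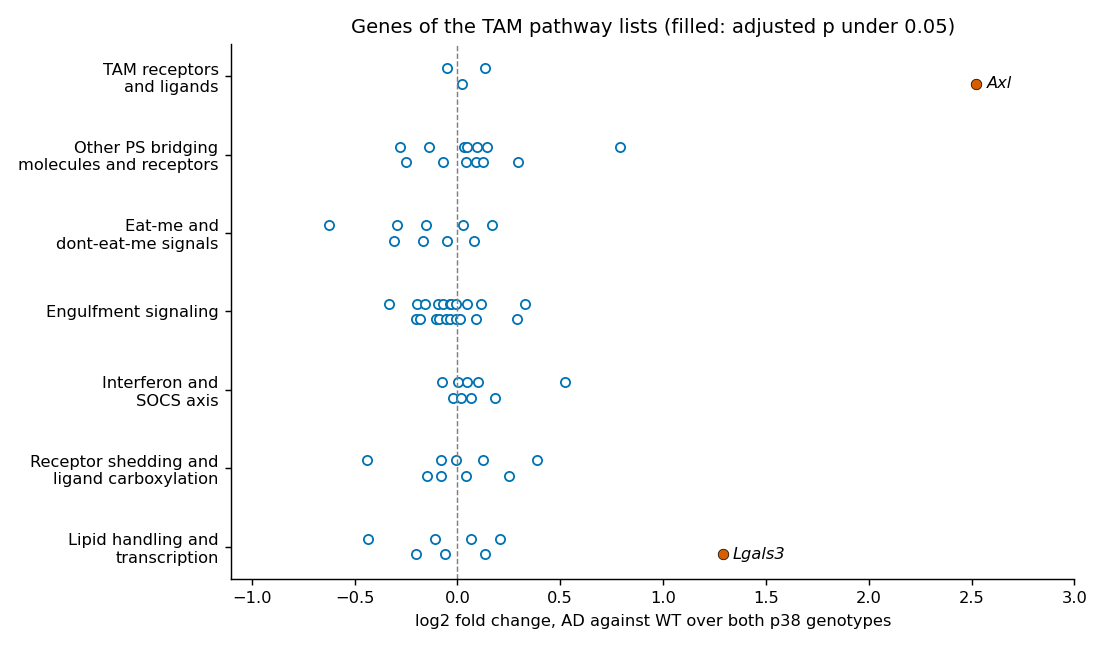
log2 fold change of AD relative to WT over both p38 genotypes (horizontal axis) for the 4 tested members and the 69 tested genes of 6 pathway lists (rows); each point is 1 gene, filled where the adjusted p was under 0.05, and the vertical offset only separates points. Axl at 2.52 and Lgals3 at 1.29 are the filled points.

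The genes whose levels followed Axl most closely over the 16 libraries were sought among 8673 genes with a mean of at least 10 CPM. They were Csf1, a growth factor of macrophages (Pearson r = 0.97), Ank, a pyrophosphate transporter (0.96), Fam20c, a secretory kinase (0.96), Itgax, the integrin CD11c (0.96), and Cst7, a cathepsin inhibitor (0.96). After subtracting each group's mean, their correlations with Axl were 0.83, 0.74, 0.79, 0.81 and 0.70. The genes were picked on these same libraries, which raises the values after subtraction. They also include AD p38+/+ mouse 1, whose 499 CPM of Axl stood apart from the 207 CPM next in its group. The libraries fall into AD and WT clusters, which alone raises the values before subtraction, and the coefficients are descriptions with no test.

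The other members did not follow Axl. Over the 16 libraries the Pearson r of Axl was -0.14 with Mertk, 0.36 with Gas6 and -0.04 with Pros1. Mertk was closest to Dnajc7 (0.87, and 0.84 after subtracting the group means) and then to Prag1, Zfp839, Tyk2 and Rsrc2 (0.85 to 0.82). By rank (Spearman) the correlations of these genes with Mertk were lower, 0.49 to 0.65. Mertk was high by itself in WT p38+/+ mouse 2, and how far the Pearson values rest on that mouse was not tested. Gas6 was closest to Aars, an alanyl-tRNA synthetase (0.87), and then to Tubb6, Tcof1, Bcas3 and Man2b1 (0.81 to 0.80). Pros1 was closest to Trmt12 (0.78), and then to mt-Nd1, Rras2, Commd8 and Pon3 (0.77 to 0.76). Pros1 and Gas6 had an r of -0.59, which was -0.65 within groups.

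Markers of other cells were set beside Axl, since border-associated macrophages also express TAM receptors. The 6 macrophage markers (Mrc1, Cd163, Lyve1, Pf4, F13a1 and Ms4a7, all listed) summed to 71.8, 65.0, 29.6 and 21.7 CPM in WT p38+/+ mice 1 to 4 and to 110.1, 81.3, 54.9 and 50.2 CPM in WT p38KO mice. They summed to 131, 75.1, 41.0 and 28.2 CPM in AD p38+/+ mice and to 22.9, 61.4, 63.0 and 61.1 CPM in AD p38KO mice. The highest sum, 131 CPM, was in AD p38+/+ mouse 1, which also had the most Axl. AD p38KO mouse 1 had 315 CPM of Axl with a marker sum of 22.9 CPM, and WT p38KO mouse 1 had 49.5 CPM of Axl with a sum of 110.1 CPM. The WT and AD ranges of the sum overlapped, and Cd163 and Lyve1 were at 0 in 2 libraries each. Astrocyte markers summed to 135 to 272 CPM, of which Slc1a3 gave 132 to 266, with Aqp4 at 0 in 8 libraries. Oligodendrocyte markers summed to 62.3 to 124 CPM, largely Mbp, endothelial and mural markers to 16.8 to 47.6, monocyte and granulocyte markers to 3.82 to 25.2, and lymphocyte markers to 0 to 0.98. The part of these cells in the levels of Axl was not tested.

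Mertk lies at chr2:128698956-128802894, Tyro3 at chr2:119797733-119818104, Gas6 at chr8:13465374-13494490 (minus strand) and Pros1 at chr16:62854307-62929346 (GRCm38). Mertk, Tyro3 and Pros1 are on the plus strand, and no members are neighbours. Tmem255b, on the opposite strand, shares 34 exonic bases with Gas6, and Gm14011 lies opposite an intron of Mertk. Whether counting used strand was not stated, and both were listed at a mean of 0.0627 and 0.106 CPM.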

How the data were processed

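RNA from sorted microglia of 16 mice (4 groups of 4) was sequenced as paired reads. The authors aligned reads with STAR to mm10, quantified them to Ensembl transcripts in Partek Flow (10.0.22.0828 per the labels), and deposited gene and transcript tables in CPM, each value with 0.0001 added. Read counts could not be recovered exactly, so no count model was used. All columns were mapped to a mouse, each a separate animal.

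Values were tested as log2(CPM + 0.5) for features reaching 1 CPM in 4 or more libraries, in 1 limma fit of 16 libraries (limma 3.58.1, R 4.3.3, trended, two-sided, Benjamini-Hochberg within a comparison, called under 0.05). Main effects are the mean of the 2 simple effects. Shares were compared by exact permutation tests. Levels per kb divide transcript CPM by GENCODE M21 length. Depth was taken from the value of 1 read. The fit was tested on simulated data. Named genes are all members and their tested transcripts, list genes called or among the 2 most abundant of their list, and the 5 genes most correlated with each member, and some items are not reported here. Members and lists were chosen with earlier results of these data known.

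The alternatives were other pseudocounts and filters, TMM and quantile scaling, array weights, the animal number as a block, covariates for sex and for the 3 libraries labelled S0, only the groups compared, transcript sums, and leaving out libraries. Figures were drawn with Python 3.11.15 and matplotlib 3.10.9.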

Additional observations from a re-analysis of the deposited data

Results flagged for a closer look

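Among 40 sets of 4 libraries tested for a stray value (Dixon's test, which chance passes in about 1 set in 20), 3 held one past the critical value. Axl was 499 CPM in AD p38+/+ mouse 1, where the next value of the group was 207 CPM. Mertk was 1361 CPM in WT p38+/+ mouse 2, where the next was 963 CPM. The share of Mertk-201 in Mertk was 97.2% in the same mouse, against 97.6% in the other 3, a gap of under 1 percentage point.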

How the results depend on the processing

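Axl was called for AD relative to WT in p38+/+ and in p38KO mice and over both, and no other member and no other comparison gave a call, under every alternative run. The fit of only the groups compared was run for the 4 pairwise comparisons. Its log2 fold change for AD relative to WT ranged from 2.43 to 3.05 in p38+/+ and from 2.14 to 2.49 in p38KO mice (adjusted p at most 0.00378 and 0.0167, limma). Values of members without a call changed sign in 51 of 739 refits, 22 of them Pros1, and each moved by less than its residual SD.

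Pathway genes called for AD in p38+/+ mice went from 0 to 1 (Lgals3) with array weights, without AD p38KO replicate 1, and without AD p38KO libraries 1 and 4 together, and ranged from 0 to 1 over leaving out 1 library. For the AD main effect they went from 1 to 2 with the sex covariate or the S0 label as covariate (Trem2), and ranged from 1 to 2 over leaving out 1 library. Those were AD p38+/+ mouse 4 and AD p38KO mouse 3 (Trem2 in the latter). Member transcripts called for the AD main effect were 4, a pair of retained-intron transcripts included. They ranged from 2 to 6 over the alternatives, and from 3 to 5 over leaving out 1 library. The count was 2 with a filter of 5 CPM, which removes the retained-intron transcripts. It was also 2 without WT p38+/+ library 2 and AD p38+/+ library 1 together, where the cause was not tested. The pairs of libraries left out together were chosen after seeing the data.

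Over the genes tested, the animal numbers gave little sign of pairing the mice. Deviations of same-numbered libraries from their group means correlated at -0.13 to 0.18, over 0.1 in 2 of 24 pairs. The numbers did follow sex and some levels. Mouse 1 was labelled female in every group. The macrophage marker sum fell from mouse 1 to mouse 4 in every group but AD p38KO. Axl fell in that order in the AD groups but not in the WT groups. With the number as a replicate block, 1 member was called for AD relative to WT in p38+/+ and in p38KO mice, with Axl at 2.77 and 2.27, and no call changed.

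With 4 mice a group and sampling by RNA quality, small differences in Mertk, Gas6 and Pros1 remain within the intervals given.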
